A study of Mus musculus with 9 samples.

Results

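The regions described here were open in every library of the study and, by the authors' annotation, lay away from promoters. They were chosen by peak presence alone. Peaks of all 9 libraries that shared at least 1 bp were merged into 92495 regions, and a merged region was kept when each of the 9 libraries had a peak in it and no peak in it was annotated as promoter-TSS. This left 1461 regions, which are 1.58% of all merged regions, 1.79% of the 81654 regions with no promoter-TSS peak and 29.99% of the 4872 regions shared by all 9 libraries. The other 3411 shared regions held a promoter-TSS peak and are called promoter shared regions below. Because presence in all libraries was the rule, presence itself is not a result here.

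The libraries are Omni-ATAC-seq profiles, in which the Tn5 transposase cuts and tags open chromatin, of brain endothelial cells (ECs) from mice that the methods place on a C57BL/6J background. WT Cre control mice carried the CDH5-CreERT2 driver, which is active in ECs through the VE-cadherin promoter, with intact Klf4. EC-K4KO mice carried the same driver and floxed Klf4. Controls and knockouts both received tamoxifen, so Cre and tamoxifen are common to all groups. The labels give young WT Cre (n = 2), young EC-K4KO (n = 3), old WT Cre (n = 2) and old EC-K4KO (n = 2) and name ages only as young or old. They do not say that each library came from a separate mouse, so p-values measure the spread between libraries, which may be technical. The names of the libraries start with 2 prefixes, and 0 of the 2 prefixes held both ages, so age and whatever the prefix marks cannot be told apart.

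Lists held between 6157 and 45026 peaks, the shortest being those of young WT Cre, and read totals were not among the values analysed here, so depth is unknown. Each library had 1 or 2 peaks in the Klf4 gene (chr4:55527143-55532466, mm10), EC-K4KO libraries included, with a highest fold between 4.05 and 7.84. These peaks do not show whether the floxed part was removed, since its position was not given in the sources used here. As a check of the cell type, promoter-TSS peaks in all 9 libraries were found for 8 of 25 endothelial identity genes and 3 of 22 barrier and transport genes, with 2279 of 20035 over all genes named by the annotation of any peak. The barrier and transport share was near that of all genes and does not mark the cell type. Of other cell types they were found for 0 of 15 pericyte and mural, 0 of 15 astrocyte, 0 of 13 oligodendrocyte, 0 of 14 neuron and 0 of 15 microglia and blood genes so named.

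As background, open chromatin away from promoters often holds enhancers, which are stretches of DNA bound by transcription factors that raise the transcription of genes at a distance. In ECs such factors include ETS proteins such as ERG and FLI1, which are needed for endothelial identity, SOX17 and SOX18, forkhead proteins, AP-1, and the Krüppel-like factors KLF2 and KLF4, which respond to blood flow. CTCF binds insulator elements and holds chromatin loops, and its sites are open in many cell types. Transfer RNA genes are transcribed by RNA polymerase III.

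Windows of 300 bp, centred on the stretch covered by the most libraries, were read from the GRCm38 reference. The first pair below is shown because both regions are nearest to Klf4, the gene removed in EC-K4KO. The others were chosen for their nearest gene or because, among regions without a transcription start site (TSS) nearby, they had the highest mean rank of fold (standing, defined further on) of those holding a given motif. Sequences run 5′ to 3′ on the plus strand of mm10, avoid annotated exons, and carry in capitals every match, on either strand, to CCGGAAG for ETS proteins in general, to CAGGAAG for ERG and FLI proteins, to GGGNGTGG for Krüppel-like factors, to GGGGCGGGG for SP proteins, to TGANTCA for AP-1 dimers, to ACAATGG for SOX proteins, to GTAAACA for forkhead (FOX) proteins, to AGATAAG for GATA proteins, and to the CTCF core. Matches of KLF and SP may overlap.
Klf4, +17494 bp, chr4:55514813-55515112: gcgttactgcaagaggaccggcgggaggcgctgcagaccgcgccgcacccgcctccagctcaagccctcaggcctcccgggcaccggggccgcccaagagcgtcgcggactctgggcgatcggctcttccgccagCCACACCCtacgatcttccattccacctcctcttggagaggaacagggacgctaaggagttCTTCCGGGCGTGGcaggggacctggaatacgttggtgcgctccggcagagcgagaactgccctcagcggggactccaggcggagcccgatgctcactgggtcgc
Klf4, -118890 bp, chr4:55651275-55651574: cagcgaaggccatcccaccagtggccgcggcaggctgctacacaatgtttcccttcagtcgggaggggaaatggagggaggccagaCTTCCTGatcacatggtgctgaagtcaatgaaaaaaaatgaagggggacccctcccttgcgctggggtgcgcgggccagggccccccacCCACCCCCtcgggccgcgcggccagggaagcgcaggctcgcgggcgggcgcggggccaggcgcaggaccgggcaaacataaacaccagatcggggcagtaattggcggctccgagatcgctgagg
Cldn5, -43359 bp, chr16:18733207-18733506: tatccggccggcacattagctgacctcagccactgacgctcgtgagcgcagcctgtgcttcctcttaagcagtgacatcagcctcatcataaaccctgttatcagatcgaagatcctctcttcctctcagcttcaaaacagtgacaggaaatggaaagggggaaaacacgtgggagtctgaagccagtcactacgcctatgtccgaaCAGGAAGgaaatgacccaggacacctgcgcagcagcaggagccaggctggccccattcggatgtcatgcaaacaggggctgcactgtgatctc
Bok, -5293 bp, chr1:93680233-93680532: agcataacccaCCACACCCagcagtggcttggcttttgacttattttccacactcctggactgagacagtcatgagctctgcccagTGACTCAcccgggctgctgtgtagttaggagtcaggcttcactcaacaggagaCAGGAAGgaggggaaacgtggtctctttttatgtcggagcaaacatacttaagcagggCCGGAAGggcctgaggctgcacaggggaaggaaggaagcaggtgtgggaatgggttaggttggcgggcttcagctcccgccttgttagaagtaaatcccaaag
Bche, +34871 bp, chr3:73673352-73673651: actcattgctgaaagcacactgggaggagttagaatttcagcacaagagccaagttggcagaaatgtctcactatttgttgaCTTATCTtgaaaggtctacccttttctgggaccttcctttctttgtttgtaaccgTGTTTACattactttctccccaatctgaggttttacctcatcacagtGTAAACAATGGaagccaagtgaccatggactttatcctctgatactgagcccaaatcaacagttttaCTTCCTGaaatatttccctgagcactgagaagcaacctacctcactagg
Atg16l2, -8634 bp, chr7:101310606-101310905: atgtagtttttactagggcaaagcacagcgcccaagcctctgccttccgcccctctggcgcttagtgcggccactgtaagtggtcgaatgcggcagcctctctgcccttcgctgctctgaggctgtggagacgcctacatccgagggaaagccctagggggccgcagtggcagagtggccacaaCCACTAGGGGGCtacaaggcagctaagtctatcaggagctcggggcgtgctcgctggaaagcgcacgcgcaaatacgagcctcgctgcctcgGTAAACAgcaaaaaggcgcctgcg
Distances are the authors' distances from the centre of a peak to the nearest TSS of the named gene, with negative values upstream. The Klf4 window at +17494 bp held 1 ETS and 2 KLF matches, and the ETS match overlapped a KLF match. In the Bche window a FOX match ran into a SOX match. The Atg16l2 window was the 1 shown with a CTCF core. A match describes letters and not binding.

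The label distal held for only part of the 1461 regions. A GENCODE M21 TSS lay inside 424 of them (29.0%), another 62 had a TSS within 1 kb, and 975 (66.7%) had none within 1 kb. The authors' own distances place 265 of the 1461 between 100 and 1000 bp downstream of a TSS and 0 nearer to one, and 255 of the 424 with a TSS inside were among those with the authors' TSS within 1000 bp. By the authors' classes 646 were intergenic, 592 intronic, 188 exonic and 35 at a transcription termination site, and 146 of the 188 exonic regions contained a TSS. The regions are therefore called shared non-promoter regions from here on, and the 424 with a TSS inside and the 975 with none within 1 kb (the distal class) are described apart.

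Both classes differed in base composition, which the rule did not use. Regions with a TSS inside had a median GC content of 66.7% and 77.8% of them had a CpG observed to expected ratio over 0.6, as did 90.7% of promoter shared regions, with a median GC of 66.0%. In the distal class the median GC was 54.0% and 19.1% passed that ratio. Repeats covered a median of 7.33% of the distal windows. Regions were 828 bp wide at the median, from 275 to 3323 bp, and 1452 of the 1461 had at least 1 base covered in all 9 libraries.

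The rule was set by the short lists. Of the 1316 non-promoter regions with a peak in 8 libraries, 1026 (78.0%) lacked only young WT Cre replicate 1 and 260 (19.8%) only young WT Cre replicate 2. Those 8-library regions had a mean fold of 6.08 at the median, against 7.06 for the 1461. On the side of the annotation, 104 shared regions were kept out by a promoter-TSS peak in a single library.

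Motif content changed with the number of libraries that shared a region, and the direction differed between factors. CTCF cores were most common in regions found in 2 or 3 libraries (6.70% and 7.24%) and rare in those found in all 9, where 17 of 1461 held one (1.16%, 95% Wilson interval 0.728% to 1.86%). The share was 1.53% in regions of a single library and 2.62% in all merged regions. With up to 1 mismatch the core was found in 7.26% of the 1461 and in 18.2% of regions of 2 libraries. ERG/FLI letters went from 13.6% of regions in a single library to 29.2% in regions of 5 libraries and stayed level to the 1461, with 29.7% (27.4% to 32.1%). KLF letters rose from 8.60% to 19.2% and ETS letters from 1.63% to 8.35%. Intervals cover counting error only, windows were of 1 length whatever the peak width, and regions of few libraries were narrower (median 244 bp in a single library).

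**Figure D1:**
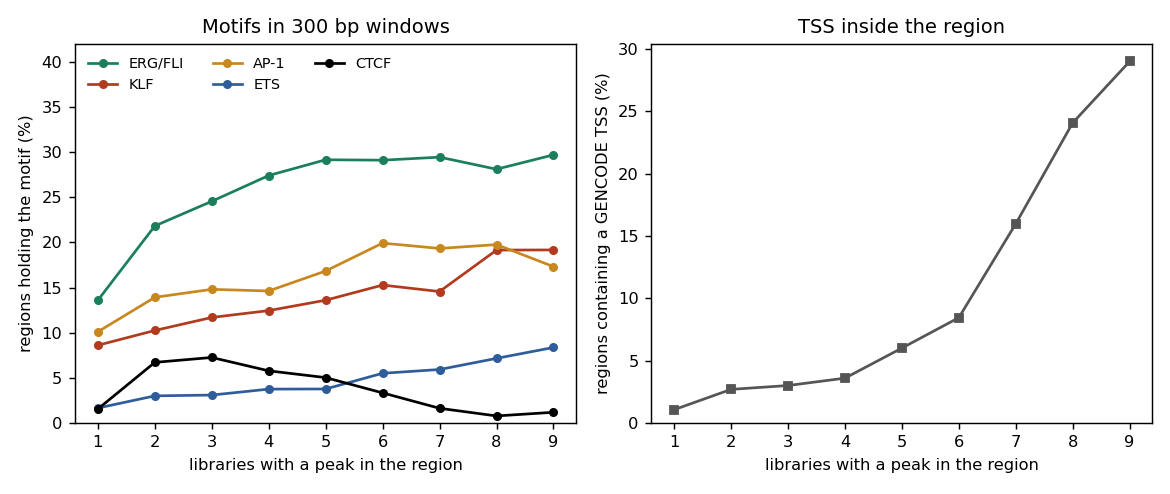
Non-promoter regions by the number of libraries with a peak in them (x axis, 1 to 9). The left panel gives the percentage of regions whose 300 bp window held each motif, and the right panel the percentage containing a GENCODE TSS. CTCF peaked at 7.24% in regions of 3 libraries and was 1.16% in the 1461 regions of 9 libraries, while ERG/FLI reached 29.7% and the share with a TSS inside 29.0%.

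The classes by TSS position carried different motifs. In the distal class ERG/FLI letters were found in 35.8% of windows, AP-1 in 21.7%, KLF in 17.8%, FOX in 9.23% and SOX in 8.51%. ERG/FLI or ETS letters were in 403 of the 975 (41.3%), and 82 held both ERG/FLI and AP-1. With a TSS inside, ERG/FLI fell to 16.3%, AP-1 to 6.37% and SOX to 1.65%, whereas SP, the GC box of many promoters, stood at 15.3% against 5.95% in the distal class. Over all merged regions ERG/FLI letters stood at 17.5%, AP-1 at 11.4%, KLF at 11.5%, ETS at 4.35%, SP at 3.77%, SOX at 5.54%, FOX at 4.64% and GATA at 3.63%, against 3.49% of the 1461 for GATA. Promoter shared regions had 26.2% with SP, 20.1% with ETS and 11.7% with ERG/FLI. KLF letters were at 22.2% with a TSS inside and 25.9% in promoter shared regions, so they did not mark the distal class. REST sites, which repress neuronal genes, were in 0 of 1461 windows (Wilson upper limit 0.262%) and in 14 of all 92495 regions (0.0151%), too few to compare. Letters of 9 further factors were searched, namely TGTGGTT for RUNX proteins, GGAATGT for TEAD proteins, ATCAAAG for TCF and LEF proteins, TTGGCA for NFI proteins, TATTTATA for MEF2 proteins, CAGCTG as an E-box, GCGCATGCG for the factor NRF1, AAGATGGC for the factor YY1 and GATTGG for the factor NFY. RUNX was found in 4.18% of the 1461 and 5.89% of all merged regions, TCF/LEF in 5.82% and 5.11%, NFI in 17.4% and 17.3%, E-box in 19.8% and 18.3% and NFY in 11.8% and 10.8%. TEAD was found in 4.11% and 4.42%, MEF2 in 1.44% and 1.62%, YY1 in 2.40% and 2.87% and NRF1 in 1.23% and 0.521%. The 17 CTCF cores lay in 15 distal regions and in 2 with a TSS within 1 kb, and 0 of 424 regions with a TSS inside held one, with an upper limit of 0.898%.

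RNA genes other than messenger RNA genes were present in a small set. RefSeq tRNA genes overlapped 22 regions (1.51%), with 43 tRNA genes on 12 chromosomes. The share was 1.06% in non-promoter regions of 8 libraries, 0.557% in promoter shared regions and 0.146% in all merged regions. Of the 22 regions, 18 lay in the distal class, since tRNA genes are not TSSs of the GENCODE set used. The highest mean fold rank belonged to a region nearest C230035I16Rik (chr13:23432583-23433152) with a tyrosine tRNA gene, whose fold ran from 6.21 to 12.6. A region on chromosome 11 nearest 2310047M10Rik (chr11:69062396-69063636) held tRNA genes for threonine, tryptophan and serine at a fold of only 2.49 to 3.83. Quantile normalization over the 4872 shared regions puts the libraries on 1 distribution. After it, on the log2 scale, this region fell by 0.56 with the knockout in young mice (limma adjusted p = 0.0416). With age in WT Cre the region fell by 0.48 (limma adjusted p = 0.0350). Both differences use the same 2 young WT Cre libraries, so they are not independent. Small nuclear RNA genes lay in 8 regions (0.548%), all with a TSS inside. The share was 0.228% in non-promoter regions of 8 libraries and 0.0432% in all merged regions. Among these genes were Rnu1a1 and Rnu2-10, which belong to the U1 and U2 RNAs of the spliceosome. tRNA and snRNA genes have near-identical copies, so reads could be shared among them.

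Endothelial genes were nearest to these regions more often than genes at large. Of 25 endothelial identity genes, 15 were nearest to at least 1 of the 1461 regions, with 29 regions in all, 28 of them distal. Among all 20035 genes named by the annotation of any peak the share was 6.33%, and the counts below are of list genes so named. The numbers were 20 of 38 for endothelial transcription factors, 10 of 22 for barrier and transport genes, 13 of 40 for vascular signalling and 10 of 30 for KLF genes and targets. For markers of other brain cells they were 0 of 15 pericyte and mural genes, 0 of 13 oligodendrocyte genes, 0 of 14 neuron genes, 0 of 15 microglia and blood genes and 1 of 15 astrocyte genes, namely Apoe, with a region at -1818 bp that the authors annotated as a transcription termination site. With lists this short, each of these counts for other brain cells is not set apart from the 6.33% of all named genes. Non-promoter regions of some library were nearest to all 14 neuron genes and all 15 pericyte genes. These neuron and pericyte genes thus had open chromatin nearby that was not shared by all libraries. Lists overlap (Sox17, Erg and the Klf genes stand in more than one), gene neighbourhoods differ in length, and nearest does not mean regulated.

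Several genes had clusters of such regions. Sik1, a kinase of the salt-inducible family, was nearest to 5, and Klf4, Flt1 (VEGF receptor 1), Adgrl4 (an adhesion receptor of ECs), Capg (an actin capping protein) and Irf2bpl were nearest to 4 each. Of the 1461 regions, 118 (8.08%) lay within 10000 bp of another.

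Fold is the peak caller's ratio of the signal in a peak to the local background of the same library. Its median over the 1461 regions was 4.65 and 4.87 in the young WT Cre libraries, 4.67, 7.70 and 7.82 in young EC-K4KO, 7.55 and 8.08 in old WT Cre and 8.94 and 8.80 in old EC-K4KO. By median fold young EC-K4KO replicate 1 therefore sat with young WT Cre and apart from replicates 2 and 3. By number of peaks and by rank correlation it was nearer its own group. Its list held 23848 peaks, beside 25309 and 27992 in replicates 2 and 3 and 6157 and 9598 in young WT Cre. Spearman's rho of fold over the 1461 regions was 0.747 and 0.703 with replicates 2 and 3, and 0.649 and 0.651 with young WT Cre. Total counts of calls with the knockout in young mice and with age in EC-K4KO are given with and without young EC-K4KO replicate 1. Values of named regions, counts by position class, overlaps and motif standings are given only with it. Over promoter shared regions the median also ran from 5.22 in young WT Cre replicate 1 to 10.3 in old EC-K4KO replicate 1.

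**Figure D2:**
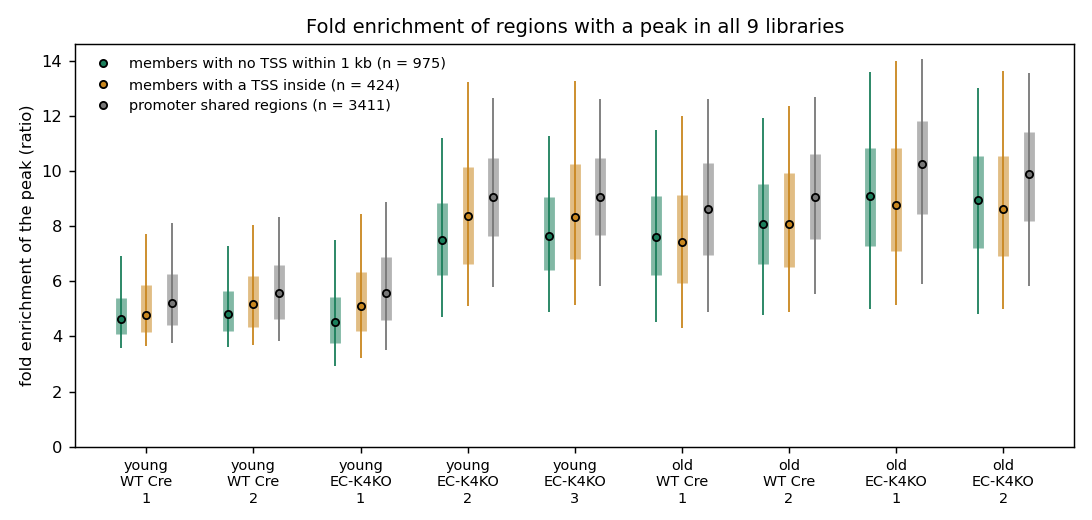
Fold enrichment (ratio, y axis from 0) in each of the 9 libraries for members with no TSS within 1 kb, members with a TSS inside and promoter shared regions, where members are the 1461 shared non-promoter regions. Points are medians, thick bars the middle 50% and thin bars the middle 90% of regions. Young WT Cre 1 and 2 and young EC-K4KO 1 lie below the other 6 libraries in all 3 classes.

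To compare regions across libraries of different level, each region was given its standing, the percentile of its fold among the 4872 shared regions of that library. A standing of 50 is the middle of the shared regions. The 1461 regions stood below promoter shared regions, with a mean standing over libraries of 37.8 at the median (20.9 to 57.2 for the middle 50%) against 55.05. Over regions, standing fell with width (Spearman rho -0.419, n = 1461, a description within shared libraries), with 47.5 at the median in the 368 narrowest and 20.8 in the 366 widest.

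Among the strongest regions, an exonic region of Mrps28, a mitochondrial ribosomal protein gene (chr3:8923376-8924036), had the highest mean standing, 99.2 ± 0.459 (SD, n = 9), with a fold from 9.19 to 16.8. Regions with a TSS inside also led at Ensa, Idi1, Fbxo46, Scamp2, Zfp143 and next to Mir30d. Among the first 10, the distal ones lay near Arl4a (chr12:39920407-39920995, mean standing 97.8), Arhgap12 and Gm16432. Wnt7b, which encodes the ligand that brain ECs need for barrier formation and is made by neural cells, had a distal region at -52927 bp (chr15:85634391-85635110) with a mean standing of 94.1 and a fold from 8.33 to 13.0. It ranked among the first 10 of the distal class, a list added after the values were seen. The widest region, 3323 bp in an intron of Kdm6b, a histone demethylase gene (chr11:69408608-69411930), was among the weakest with a mean standing of 0.575 and a fold between 3.00 and 4.19. The next widest lay at 4930526I15Rik (2997 bp) and near Bcor (2931 bp), with mean standings of 4.92 and 3.35. In no library did any of these 3 exceed a standing of 16.6.

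The regions near Klf4 covered a wide range. At +17494 bp (chr4:55514750-55515243, the first sequence above), fold was 5.16 and 6.02 in young WT Cre, 6.54, 11.8 and 13.2 in young EC-K4KO, 12.1 and 12.3 in old WT Cre and 16.2 and 17.0 in old EC-K4KO. All 3 knockout libraries of the young age and both of the old age were above the controls of that age. After quantile normalization the knockout differences of this region were 0.35 ± 0.13 (log2, SE) in young mice and 0.33 ± 0.14 in old mice. With age the differences were 0.43 ± 0.14 in WT Cre and 0.41 ± 0.13 in EC-K4KO. None passed (limma adjusted p = 0.144, 0.9999, 0.0646 and 0.0865, in that order). At -118890 bp (chr4:55650939-55651769, the second sequence) fold was 8.398 and 9.05, then 9.62, 11.5 and 10.9, then 8.42 and 8.86, and last 11.2 and 9.66, in the same order of groups. This region kept its raw fold while the other regions of old WT Cre had a higher one, and on the common scale it fell by 0.66 with age in WT Cre (SE 0.14, limma adjusted p = 0.0188). The remaining Klf4 regions, at -72601 bp (with a TSS inside) and -581278 bp, had mean standings of 66.9 and 22.1 and passed in no contrast.

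Around other endothelial genes most regions did not pass in any contrast. The Cldn5 region shown above (Cldn5 encodes claudin 5, the main tight junction protein of the barrier) had folds of 5.93 and 5.92 in young WT Cre, 5.07, 7.78 and 7.60 in young EC-K4KO, 8.74 and 8.70 in old WT Cre and 9.72 and 9.58 in old EC-K4KO. It followed the level of the libraries, and its normalized differences of -0.33 ± 0.11 with the knockout in young mice and -0.16 ± 0.12 with age in WT Cre did not pass (limma adjusted p = 0.107 and 0.393). S1pr1 encodes the sphingosine phosphate receptor that tightens EC junctions. Its region at -43633 bp (chr3:115758361-115758970) was among the strongest of the lists, with a mean standing of 81.2 and a fold from 5.99 to 11.4, and its nearer region at +5832 bp fell by 0.51 with age in WT Cre (SE 0.15, limma adjusted p = 0.0423). Flt1 had a region at -25892 bp with folds of 3.78 and 4.85, then 5.67, 8.61 and 9.52, then 10.1 and 11.3, and last 10.97 and 11.2. It rose with age in WT Cre by 0.71 (SE 0.15, limma adjusted p = 0.0198). Raw folds of old and young WT Cre did not overlap, but the level of these libraries differed too. Median fold over the shared non-promoter regions was 4.65 and 4.87 in young and 7.55 and 8.08 in old WT Cre. By percentile among the shared regions of each library, the Flt1 region was at 7.51 and 36.1 in young and 76.3 and 86.7 in old WT Cre.

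**Figure D3:**
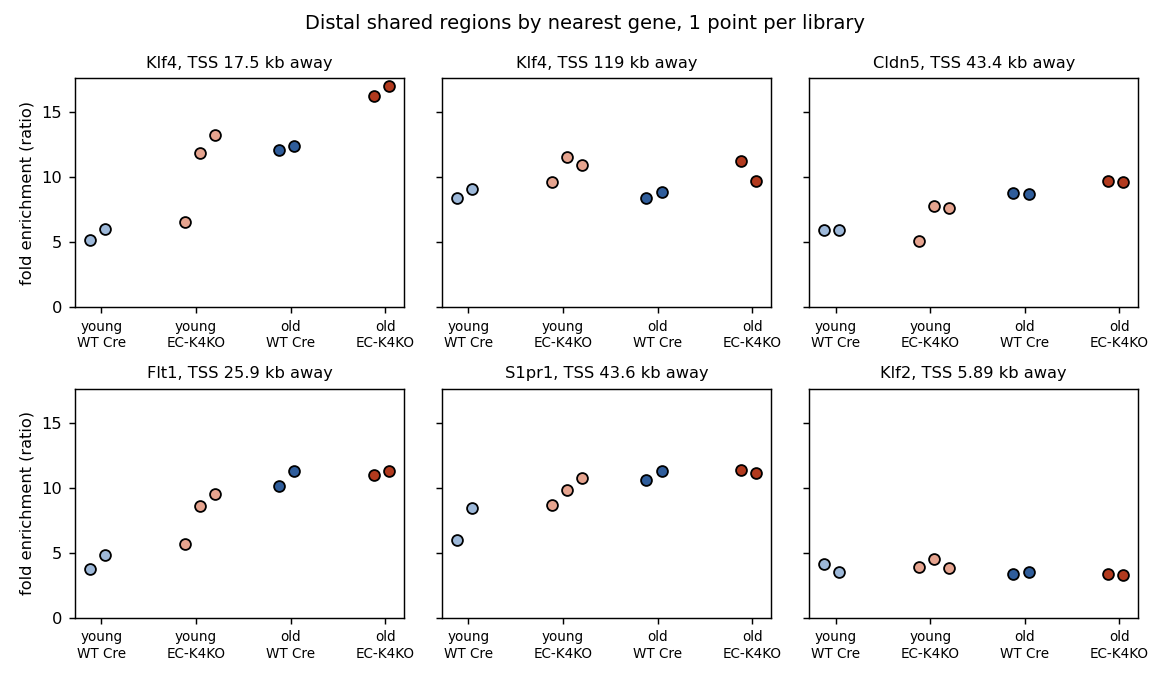
Fold enrichment (ratio, y axis from 0) of 6 shared non-promoter regions, titled by nearest gene and by distance to its TSS, with 1 point for each library in the 4 groups. The Klf4 region at the left of the upper row runs from 5.16 in young WT Cre to 17.0 in old EC-K4KO, and the Klf2 region stays between 3.28 and 4.48.

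Further members of the lists were called with age in WT Cre. Adgrl4 had 4 regions, of which 1 (chr3:151390737-151391247) rose by 0.54 (SE 0.16) from folds of 5.93 and 4.49 to 11.4 and 12.7 (limma adjusted p = 0.0436). Another (chr3:151293931-151294678, with a TSS inside) fell by 0.55 with age in EC-K4KO (SE 0.14, limma adjusted p = 0.0435). A region of Ptprb, the phosphatase VE-PTP of endothelial junctions, fell by 0.48 (SE 0.12, limma adjusted p = 0.0277), and a region nearest Slc7a1, the cationic amino acid transporter, fell by 0.39 (SE 0.11, limma adjusted p = 0.0436), both with age in WT Cre. Over the 29 regions of the endothelial identity list, 3 rose and 2 fell with age in WT Cre, 0 rose and 1 fell with age in EC-K4KO, and 0 rose and 1 fell with the knockout in young mice. Over the 32 regions of endothelial transcription factors 0 rose and 3 fell with age in WT Cre and 1 rose and 0 fell with age in EC-K4KO. Over the 17 regions of KLF genes and targets, which share the Klf genes with that list, 0 rose and 3 fell with age in WT Cre. Among all shared regions 13.1% were called with age in WT Cre, 4.41% with age in EC-K4KO and 1.79% with the knockout in young mice, and counts this small in the lists are not set apart from those shares. Glut1 (Slc2a1), the glucose transporter of the barrier, had 2 regions and Mfsd2a, its lipid transporter, 1, and none of them passed in any contrast.

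The first comparison asked how the knockout moved these regions in young mice. In limma on quantile normalized log2 fold, fitted on all 4872 shared regions, 31 of the 1461 were called at an adjusted p under 0.05 (13 higher and 18 lower in EC-K4KO), or 2.12%. Among all shared regions 1.79% were called, 1.01% higher and 0.78% lower, so the share of the 1461 was near that background. The median difference was -0.04 over the 1461 and -0.01 over all shared regions. Only regions that kept a peak everywhere could be tested, which leaves out those that lost it.

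The largest rise lay near Gm16675 (chr8:46686670-46687307, distal), where fold was 3.61 and 4.195 in young WT Cre and 5.74, 11.7 and 10.03 in young EC-K4KO, a log2 difference of 0.86 ± 0.15 (SE). Phf20l1, a chromatin reader gene, had an exonic region with a TSS inside (chr15:66577309-66578145), with 4.03 and 4.15 against 8.70, 10.99 and 10.7 and a difference of 0.86 ± 0.11. An intronic region of Cdh13, which encodes T-cadherin, rose by 0.77 ± 0.12, and a region near Lrig2 by 0.76 ± 0.13. The 3 young EC-K4KO libraries were above both young WT Cre libraries in each of these 4 regions. The limma adjusted p of these 4 ran from 0.0193 to 0.0246. Lower regions were near Man1c1 (chr4:134734055-134735185), with 4.66 and 5.61 against 2.95, 4.27 and 5.09 and a difference of -0.85 ± 0.12, and at Hivep2, Pisd, Eef1a1 (translation elongation factor) and Hyal2 (hyaluronidase), with differences from -0.72 to -0.70. Raw folds carry the difference in level between the libraries. Those of young WT Cre and young EC-K4KO overlapped at Man1c1, Pisd, Eef1a1 and Hyal2 and did not overlap at Hivep2.

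These young calls depended on single libraries. Without young EC-K4KO replicate 1, whose median fold lay near that of young WT Cre, 209 of the 1461 were called (88 higher and 121 lower). That was 14.3% of them, beside 12.5% of all shared regions. Calls among all shared regions changed with the left-out library too. Without young EC-K4KO replicate 2 or 3, or either old EC-K4KO library, 0 were called, with 2 without either old WT Cre library and 33 and 65 without young WT Cre replicate 1 and 2. Median centring in place of quantile normalization gave 73 calls, 14 higher and 59 lower.

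In old mice the knockout gave no call. At an adjusted p under 0.05 limma called 0 of the 1461 and 0 of all shared regions (0%), with 59 of the 1461 at an unadjusted p under 0.05. The median difference was -0.01 and the middle 50% of the regions lay between -0.09 and 0.09 on the log2 scale. The interaction, that is the change of the knockout difference with age, also had 0 calls (0% of all shared regions), with 131 of the 1461 at an unadjusted p under 0.05. So the larger count in young than in old mice is not shown to be a difference between the ages.

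With age, regions were called in control and in knockout mice. In WT Cre 194 of the 1461 were called (13.3%), 88 higher and 106 lower in old mice, against 13.1% of all shared regions, 5.77% higher and 7.31% lower. In EC-K4KO 87 were called (5.95%), 57 higher and 30 lower, against 4.41% of all shared regions, 2.32% higher and 2.09% lower. Both counts were near their background, with the EC-K4KO count of higher regions above it (3.90% of the 1461). Both age comparisons share no library, but they come from 1 fit with a common estimate of the spread. Both also carry the split by name prefix. The lists had 29 called regions in common, 14.9% of the WT Cre list and 33.3% of the EC-K4KO list. Of these, 15 were higher in both, 14 lower in both and 0 in opposite directions. The overlap among all shared regions is not given here, so this count is not set apart from it. Over all 1461 regions the sign was the same in 1064 (72.8%) and Spearman's rho of the differences was 0.635, given as a description.

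Among called regions the direction with age differed between the position classes. In the distal class 50 rose and 9 fell with age in EC-K4KO, and 69 rose and 57 fell in WT Cre. With a TSS inside, 4 rose and 20 fell in EC-K4KO, and 16 rose and 43 fell in WT Cre. Of promoter shared regions 56 rose and 72 fell in EC-K4KO, and 193 rose and 250 fell in WT Cre. In EC-K4KO 5.13% of the distal class rose and 0.923% fell, beside 2.32% and 2.09% of all shared regions. In WT Cre 7.08% of the distal class rose and 5.85% fell, beside 5.77% and 7.31%. The medians of the log2 difference, distal class against TSS inside, were 0.09 against -0.07 in EC-K4KO and 0.04 against -0.05 in WT Cre. With median centring the distal counts became 76 higher and 45 lower in EC-K4KO and 46 higher and 122 lower in WT Cre, and those with a TSS inside 3 and 47 and 16 and 75. Among all shared regions centring gave 239 higher and 628 lower in WT Cre and 157 higher and 288 lower in EC-K4KO. The balance of the distal class in WT Cre thus turned with centring, and calls among all shared regions also moved toward lower. Distal regions stayed above those with a TSS inside at the median in both genotypes. In these counts the position classes were defined after the data were first seen, and the difference between them was not tested. Without young EC-K4KO replicate 1, 14 of the 1461 were higher and 5 lower with age in EC-K4KO. Among all 4872 shared regions 29 were higher and 22 lower in that fit. Counts by position without single libraries are not given here.

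**Figure D4:**
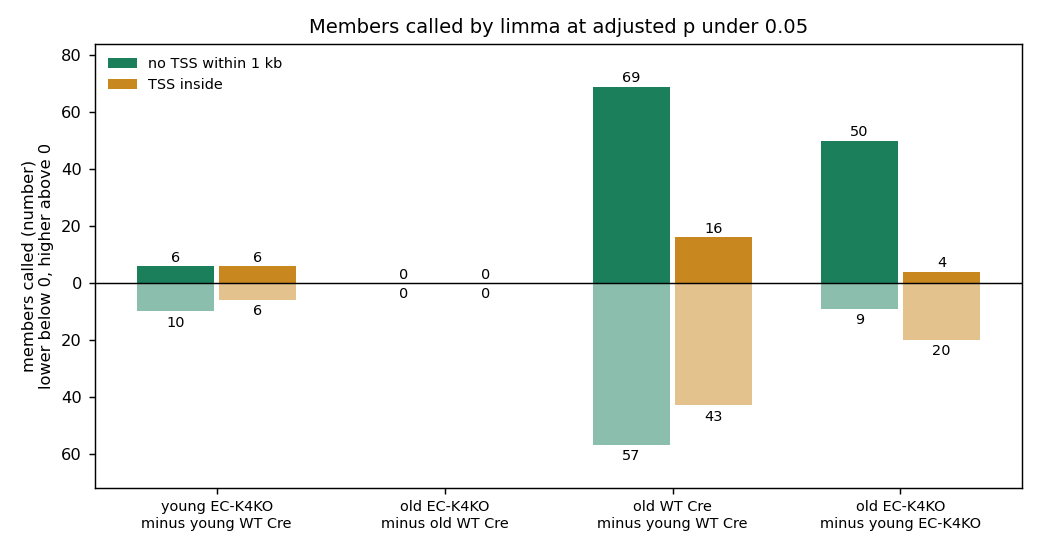
Number of shared non-promoter regions called at a limma adjusted p under 0.05, higher above 0 and lower below 0, for 4 comparisons (x axis) and for the 975 regions with no TSS within 1 kb and the 424 with a TSS inside. With age in EC-K4KO 50 distal regions were higher and 9 lower, against 4 and 20 with a TSS inside.

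The same pattern could be read in each library. The median standing of the distal class was below that of regions with a TSS inside in all 5 young libraries, by -6.72 and -10.1 in young WT Cre and -14.9, -15.0 and -12.1 in young EC-K4KO. It was above in all 4 old libraries, by 2.84 and 0.216 in old WT Cre and 4.07 and 4.12 in old EC-K4KO. Young and old libraries did not overlap in this difference, and young EC-K4KO replicate 1 lay with its own group here.

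**Figure D5:**
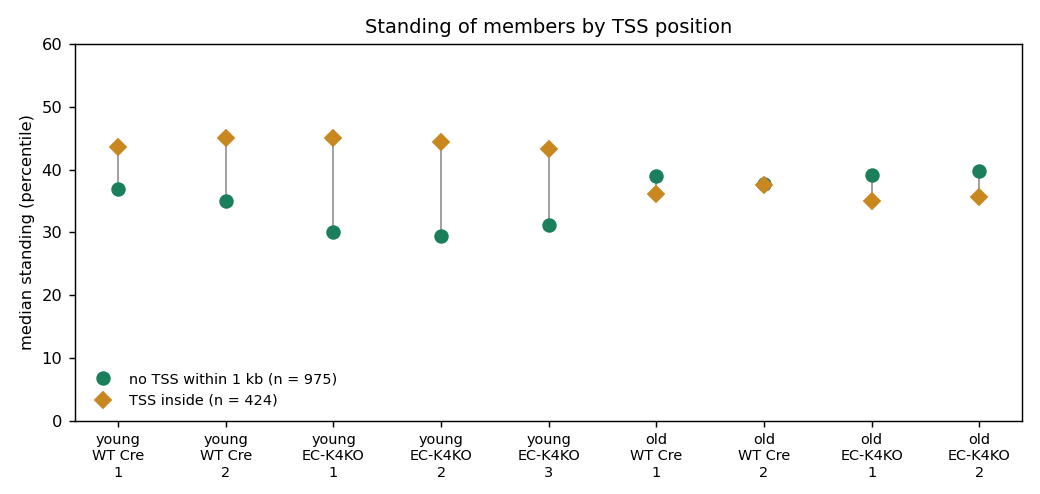
Median standing (percentile of fold among the 4872 shared regions, y axis) in each of the 9 libraries for the 975 regions with no TSS within 1 kb and the 424 with a TSS inside. Grey lines join both medians of a library, which differ by -15.0 to -6.72 in young and by 0.216 to 4.12 in old libraries.

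With age in WT Cre the largest rise and the largest fall were distal. Near Lrig2 (chr3:104441795-104442418), a receptor regulator gene, fold was 3.44 and 3.64 in young WT Cre, 4.09, 8.55 and 7.86 in young EC-K4KO, 10.2 and 11.4 in old WT Cre and 10.6 and 10.3 in old EC-K4KO. It rose with age in WT Cre by 1.29 ± 0.15 (log2, SE, limma adjusted p = 0.00497). It was also among the largest rises with the knockout in young mice. Both differences use the same 2 young WT Cre libraries, so they are not independent. In those libraries the standing of this region was 0.554 and 2.75. Regions near Morn3 and 1700001O22Rik, the latter with a CTCF core, rose by 1.15 ± 0.23 and 1.10 ± 0.26, and a region with a TSS inside at N6amt1, a methyltransferase gene, by 0.97 ± 0.17. In the other direction the region near Vps18, a lysosomal tethering gene (chr2:119299833-119301424), had 9.10 and 9.01 in young WT Cre against 6.02 and 6.60 in old WT Cre, and 9.64, 13.1 and 7.85 in young against 6.28 and 6.81 in old EC-K4KO. It fell by 1.12 with age in WT Cre and by 0.90 in EC-K4KO on the log2 scale, with no overlap of young and old in either genotype. Prickle1, Hivep2, Phldb1 and Dopey1 had regions with a TSS inside that fell with age in WT Cre by 0.89 to 0.98 on the log2 scale.

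In EC-K4KO the 5 largest rises with age were all intergenic and without a TSS within 1 kb. They lay near Epb4.1l4aos, 1700018B08Rik, Sh3bp4, Hipk3 and Plekhm1, with log2 differences of 1.06, 0.98, 0.87, 0.87 and 0.80. Near Sh3bp4, an adaptor gene of endocytosis (chr1:89062926-89063492), fold was 4.03, 6.49 and 8.01 in young and 13.7 and 13.5 in old EC-K4KO, with 4.71 and 5.53 in young and 11.7 and 12.6 in old WT Cre. Of the 5 largest falls, Zfp191, Phf20l1 and Arrdc3 had a TSS inside. Phf20l1, which was higher in young EC-K4KO than in young WT Cre, fell by 0.77 with age in EC-K4KO (SE 0.11, limma adjusted p = 0.0157). Both differences use the same young EC-K4KO libraries, so they are not independent. Sik1 had 1 region of its 5 (chr17:31790395-31791092) that rose with age by 0.58 ± 0.16 in WT Cre and 0.71 ± 0.15 in EC-K4KO (limma adjusted p = 0.0373 and 0.0265).

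The age calls also rested on few libraries. With age in WT Cre 0 of the 1461 were called without either old WT Cre library, 72 without either old EC-K4KO library and 123 without young WT Cre replicate 1. In EC-K4KO 0 were called without either old EC-K4KO library, 18 without either old WT Cre library, 5 without young EC-K4KO replicate 2, 19 without young EC-K4KO replicate 1 and 155 without either young WT Cre library. A group left with 1 library was assumed to vary like the others. Calls with age among all shared regions also changed with the left-out library. Without young EC-K4KO replicate 1 the share called in EC-K4KO was 1.30% of the 1461 and 1.05% of all shared regions. Median centring gave 63 higher and 205 lower in WT Cre and 83 higher and 96 lower in EC-K4KO. That was 18.3% and 12.3% of the 1461, beside 17.8% and 9.13% of all shared regions.

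Whole-library measures of the regions were compared by a two-sided exact permutation test within strata (60 arrangements, smallest p 0.0167) with Benjamini-Hochberg (BH) adjustment over 8 tests, and none passed. In young libraries the median standing averaged 37.6 ± 0.784 (SD) for the 2 WT Cre and 33.7 ± 0.524 for the 3 EC-K4KO. In old libraries it averaged 37.8 ± 0.493 for the 2 WT Cre and 37.5 ± 0.827 for the 2 EC-K4KO. The 3 young EC-K4KO libraries were below all others. EC-K4KO minus WT Cre was -2.13 (exact p = 0.0333, BH 0.0889), from -3.95 in young and -0.318 in old mice, and old minus young was 2.00 (exact p = 0.05, BH 0.1). In the distal class alone the age difference was 5.80 (exact p = 0.0167), an analysis added after seeing the data, and the knockout difference -2.32 (exact p = 0.183). Peaks in the regions were 389 ± 30.8 bp wide at the median in young WT Cre, 611 ± 66.3 bp in young EC-K4KO, 685 ± 14.1 bp in old WT Cre and 727 ± 3.89 bp in old EC-K4KO. Width differed by 132 bp between genotypes (exact p = 0.0167, BH 0.0889) and by 206 bp between ages (exact p = 0.0333, BH 0.0889), and peaks were narrowest in the shortest lists, those of young WT Cre.

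Members with a CTCF core rested on 17 regions. Their median standing minus that of the others was 1.25 and -21.0 in young WT Cre, -8.69, 9.71 and 19.4 in young EC-K4KO, 9.49 and 22.2 in old WT Cre and 16.4 and 20.6 in old EC-K4KO. Groups of the young age overlapped. The differences of 9.67 with genotype (exact p = 0.267, BH 0.356) and 18.7 with age (exact p = 0.0667, BH 0.107) did not pass. In the distal class the standing of holders of other motifs was set against that of non-holders as a description. Windows with ERG/FLI letters (349 regions) were higher in standing than the other 626 in all 9 libraries, by 4.27 to 9.25, and SOX holders (83) by 0.852 to 19.1, with the largest values in old EC-K4KO. KLF holders (174) were lower in all 9 libraries, by -14.3 to -1.67. FOX holders (90) were higher in all 9, by only 0.718 to 4.28. For ETS, AP-1, NFI, TCF/LEF and E-box letters the sign differed between libraries.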

How the data were processed

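Omni-ATAC-seq was measured in 9 libraries of flow-sorted brain ECs. The authors trimmed and mapped reads to mm10 with Bowtie2, removed duplicates and called broad peaks per library with MACS2, without pooling replicates. Per the file headers and the values, the deposited lists give for each peak a score (10 times the -log10 q), a fold (ratio of signal to local background), a -log10 p-value and a -log10 q-value, and the authors' HOMER annotation with class, gene and distance to TSS. Fold and -log10 values are averages over a broad peak, and up to 2.05% of the regions had a peak with a q over 0.05 in a library. Counts of reads were not analysed here, so depth and its precision are unknown.

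Peaks were merged with pandas 2.3.3 in Python 3.11.15 (numpy 2.4.6, scipy 1.17.1, matplotlib 3.10.9). For a region with more than 1 peak of a library the strongest was used. TSSs came from the basic set of GENCODE M21, RNA genes from RefSeq and sequence from GRCm38.p6, the build of mm10. Limma 3.58.1 in R 4.3.3 compared log2 fold, quantile normalized over all 4872 shared regions, with 4 group means, no covariate and BH adjustment over all of them at 0.05. In simulated data for young EC-K4KO against young WT Cre with 4872 regions, 187 of 200 changed regions were recovered and 7 others called. The size and spread of the changes put in are not given here, and recovery in the real libraries was not tested. The authors' test on read counts (DiffBind) was not rerun. The library measures were the median standing, the share of the strongest 1000 peaks, the median peak width and the standing of CTCF holders. Motifs of CTCF and REST hold ambiguous letters and are named only. The members, gene lists, motifs and tests were chosen with earlier results of these data known. Regions named were the 10 of highest mean standing, the 5 largest called rises and falls per contrast, the 3 of highest mean standing per gene list, the 3 widest and the highest for a motif, and other regions of the same genes were named after their values were seen. Sequences on chromosome 18 are not printed, and 1 region that the rule names is not reported here. Alternatives covered peak q limits, merging, TSS distance, normalization, the fold measure, windows and left-out libraries.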

Additional observations from a re-analysis of the deposited data

Results flagged for a closer look

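The share of each library's 1000 strongest peaks (by -log10 p-value) that fell in the shared non-promoter regions moved in opposite directions with the knockout at both ages. It was 17.3% and 18.6% in young WT Cre and 15.8%, 14.8% and 16.6% in young EC-K4KO, so every young EC-K4KO library was below the young WT Cre libraries (-2.22 percentage points). In old WT Cre it was 15.4% and 16.7% and in old EC-K4KO 16.8% and 17.9%, so both knockout libraries were above (1.30 points). The difference between the ages was 3.52 points (two-sided exact permutation of genotype within age, p = 0.0167, the smallest of 60 arrangements, BH 0.0667 over 4 measures), so it does not pass after adjustment. Over both ages the genotype difference was -0.458 (exact p = 0.617) and the age difference -0.142 (exact p = 0.883). Its relation to depth was not tested.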

How the results depend on the processing

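The number of regions was 1461 and ran from 975 to 1460 under stricter q limits, other merging, a common base or a TSS limit. Leaving out 1 library gave 1463 to 2536, the highest without young WT Cre replicate 1, and leaving out young EC-K4KO replicate 1 and both young WT Cre libraries, an alternative added after seeing the data, gave 8450. Calls (31, 194 and 87 for the knockout in young mice, age in WT Cre and age in EC-K4KO) became 73, 268 and 179 with median centring, 92, 110 and 162 with the -log10 p in place of fold, and 16, 126 and 59 in regions with no TSS within 1000 bp, with or without the promoter-TSS rule, the last because fewer regions were counted. With the replicate number as a block (replicate block) they were 3, 232 and 111. Among all 4872 shared regions the counts were 162, 867 and 445 with median centring, and 4, 767 and 299 with the block. Correlations of the deviations of same-numbered libraries ran from 0.00506 to 0.184, with 1 of 12 over 0.1. Some of these values repeat, because deviations in a group made of a single pair mirror each other. Whether same-numbered libraries share more than a number was not tested. Leaving out 1 library gave 0 to 209, 0 to 288 and 0 to 155. The old knockout comparison and the interaction stayed at 0 in every setting run.

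The genotype difference in standing was -2.74 by -log10 p, -2.10 with q under 0.05, -2.31 with no TSS within 1000 bp and -2.32 with the promoter rule as well (added), none with an exact p under 0.05, and -2.43 to -1.84 without 1 library. The age difference was 2.23, 5.72 and 5.80 in the last 3 of these settings, each with an exact p under 0.05, and 1.71 to 2.29 without 1 library. For the share of strongest peaks, 5000 peaks in place of 1000 gave -2.49 for genotype and -2.64 for age. Its age difference turned to 0.925 and 0.917 with no TSS within 1000 bp and ran from -0.467 to 0.183 without 1 library, with 0.183 without young WT Cre replicate 2 or old WT Cre replicate 1, 0.075 without young EC-K4KO replicate 3 and 0.133 without old EC-K4KO replicate 1, and its genotype difference from -0.783 to -0.133. Width differed by 118 to 151 bp (118.25 to 150.5) for genotype and 188 to 220 bp (187.5 to 219.75) for age. The age difference for CTCF holders turned to -1.03 with 1 mismatch allowed. Windows of 200 and 500 bp changed all motif shares, with ERG/FLI at 21.8% and 39.9%, KLF at 11.9% and 29.4%, and CTCF at 0.548% and 2.19%. The cause of these changes was not tested. Depth is unknown, and its part in these results was not tested.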

Other observations

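Regions with tRNA genes and holders of the SP letters had their own standing among the shared regions, given here as values. The 22 regions with a tRNA gene had a median mean standing of 23.9, from 1.11 to 83.9. By library their median was 23.1 and 39.2 in young WT Cre, 34.9, 20.6 and 34.7 in young EC-K4KO, 19.1 and 14.02 in old WT Cre and 16.5 and 17.1 in old EC-K4KO, so all 4 old libraries were below all 5 young ones. With age in WT Cre 1 of the 22 was called higher and 2 lower, with age in EC-K4KO 0, and with the knockout in young mice 0 higher and 1 lower, beside 13.1%, 4.41% and 1.79% of all shared regions.

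Distal regions with SP letters (58) stood above the other distal regions in all 5 young libraries, by 1.23 to 7.40, and below them in all 4 old libraries, by -13.5 to -10.5. SP letters are frequent in promoters, and these windows have no annotated TSS within 1 kb.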
